A study of Mus musculus with 26 samples.

Results

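The positive arm of the molecular clock was described through 4 genes, chosen by symbol: Arntl (Bmal1, ENSMUSG00000055116), Clock (ENSMUSG00000029238), Npas2 (ENSMUSG00000026077) and Arntl2 (Bmal2, ENSMUSG00000040187). They are 4 of the 55416 genes in the table, and 3 of them were among the 13697 genes whose mean reached 1 CPM (the count scaled to a common library size) in both main groups, the minimum for a test. Arntl2 did not reach it and is given by its values alone. The tissue was the choroid plexus (ChP) of the 4th ventricle, the epithelium that makes cerebrospinal fluid, taken from adult male mice. The main groups were C57Bl6J mice, of which 12 had sham surgery (Ctrl) and 12 an electrolytic lesion of the suprachiasmatic nucleus (SCNx), the hypothalamic pacemaker, and in each group 1 mouse was sampled every 4 h from CT0 to CT44 in constant darkness after a week of LD12:12. CT is circadian time, counted from the hour at which the lights would have come on. The KO group was 1 mouse at ZT7 and 1 at ZT18 under LD12:12 (ZT, hours after lights on), of genotype FoxJ1-ERT2-Cre+/-; Bmal1fl/fl and fed tamoxifen, so that recombination was driven from the FoxJ1 promoter, that of a ciliated-cell transcription factor, and the recombination test named in the sample notes was made in liver. By the study's methods, its parent lines shared the strain of the main groups, and the KO mice were some months older and kept at another facility. No KO littermate without Cre and no KO mouse in darkness was analysed here.

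The protein products of Arntl and Clock form a heterodimer of bHLH-PAS proteins that binds E-box elements and activates the genes of its own repressors, the Per and Cry genes, as well as the REV-ERB receptors. REV-ERB and ROR proteins then act on response elements in the Arntl promoter, which closes a second loop. NPAS2 is a paralogue of CLOCK that can take its place beside BMAL1, and BMAL2 is the paralogue of BMAL1. In most tissues with a running clock, Arntl transcript is highest around the end of the night while Clock transcript varies less.

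Ctrl and SCNx libraries held from 38751201 to 49527655 estimated counts, and the KO libraries 17425207 and 18059227. The summed CPM of 10 epithelial markers of the ChP ranged from 141683 to 165894 in Ctrl, from 106649 to 165532 in SCNx, and was 105736 and 94064 in KO. Other tissue was seen in single libraries. Summed over 10 hepatocyte genes, Ctrl CT16 had 2484 CPM (median of Ctrl 2.53) and SCNx CT0 had 11264 (median of SCNx 4.45). Summed over 10 neuronal and cerebellar genes, Ctrl CT4 had 334 CPM (median of Ctrl 17.8) and SCNx CT32 had 408 (median of SCNx 16.4). With bulk tissue, fewer cells of a type and less RNA per cell cannot be told apart. The values of the members are given with all libraries. Leaving out these 4 libraries, singly or in pairs, changed no call on a member except where stated.

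The start region of Arntl held core letters of the element that REV-ERB and ROR bind, and of the other members only 1 window of Clock did. RefSeq windows of 300 bases (250 before and 50 after an annotated start; GRCm38.p6, an older build than the one used for the counts) were found for all 4 genes, 2 for Arntl, 3 for Clock and 1 each for Npas2 and Arntl2. Each motif was searched on both strands. AAAGTAGGT, chosen after the Arntl window was read, occurred in 0.183% of all 32851 windows and in both windows of Arntl, and in no other member. Its presence in Arntl was thus fixed by the choice. The 2 Arntl windows overlap, and the upstream site is the same site in both. AGGTCA, the core of the response element, occurred in 16.3% of all windows, in 1 window of Arntl and in 1 of Clock, and TAGGTCA, which contains it, in 2.61% of all windows and in the same window of Arntl only. The canonical E-box CACGTG (7.15% of all windows) and the D-box letters TTANGTAA (2.32%) were in none of the 7 windows. The 3 stretches of 30 bases that hold these matches are printed 5′ to 3′ along the gene, with the match in capitals, because elements of this kind are how the second loop is known to reach Arntl. The first lies at chr7:113207491-113207520 and begins its match 10 bases before the start site, the second at chr7:113207527-113207556 with its match from base 27 after it, and the 3rd at chr5:76303604-76303633 on the minus strand, with its match at base -119 from the last of the Clock starts along the gene, where AGGTCA reads on the opposite strand.
Arntl, upstream site: gattggtcggAAAGTAGGTtagtggtgcga
Arntl, downstream site: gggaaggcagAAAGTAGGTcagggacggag
Clock, last start: agctttggcctcTGACCTgacagatgacag
A match describes letters in these windows only and was not set against binding data.

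Per kilobase of exon, Clock was the most abundant of the 4 transcripts. Its mean in Ctrl was 12.0 ± 2.52 CPM per kb (SD, n = 12), against 2.63 ± 1.80 for Npas2, 2.17 ± 1.98 for Arntl and 0.0616 ± 0.0220 for Arntl2. The means in SCNx kept this order, with 13 ± 1.8 for Clock, 2.15 ± 0.490 for Npas2, 1.87 ± 0.740 for Arntl and 0.0682 ± 0.0418 for Arntl2 (SD, n = 12). Arntl and Npas2 overlapped in both groups, while Clock lay above both and Arntl2 below both in every library. Lengths were the union of all annotated exons, 13.7 kb for Clock, 7.52 kb for Arntl, 4.79 kb for Npas2 and 5.69 kb for Arntl2, so unused exons lower a gene's value.

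Arntl cycled more strongly than its partners in Ctrl. Its level had a minimum of 1.99 CPM in Ctrl CT36, a median of 10.6 and a maximum of 39.6 in Ctrl CT0, a 19.9-fold range. Both mice at the start of subjective day were highest, at 39.6 CPM in CT0 and 39.3 in CT24, and the 4 mice of CT8, CT12, CT32 and CT36 were lowest, between 1.99 and 2.95. The fitted 24 h curve of log2 CPM had an amplitude of 2.23 ± 0.079 (SE, n = 12) and a peak at 22.8 ± 0.13 h. The residual SD around it was 0.19, and R2 was 0.989. The amplitude ranked 42nd of the 13697 tested genes. This rank, like those of the other members below, counts every tested gene, whether or not its rhythm was called. Genes raised in single libraries by other tissue were not kept out of it.

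Npas2 followed with a smaller swing. The level ran from 4.89 CPM in Ctrl CT36 through a median of 9.95 to 29.5 in Ctrl CT24, a 6.02-fold range. The mice of CT0 and CT24 were again highest, at 26.6 and 29.5 CPM, and 6 mice between CT8 and CT16 and between CT32 and CT40 were all between 4.89 and 6.29. The amplitude was 1.28 ± 0.093 on the log2 scale (SE, n = 12) with a peak at 0.135 ± 0.28 h, which placed it 102nd among the tested genes.

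Clock varied least. Its level went from 101.5 CPM in Ctrl CT36 through 173 to 201 in Ctrl CT24, a 1.98-fold range. The mice of CT12 and CT36 were at 108 and 101.5 CPM and the other 10 at 139 or above. The amplitude was 0.42 ± 0.062 (SE, n = 12), larger than in 93.5% of the tested genes, and the peak fell at 23.9 ± 0.57 h.

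**Figure D1:**
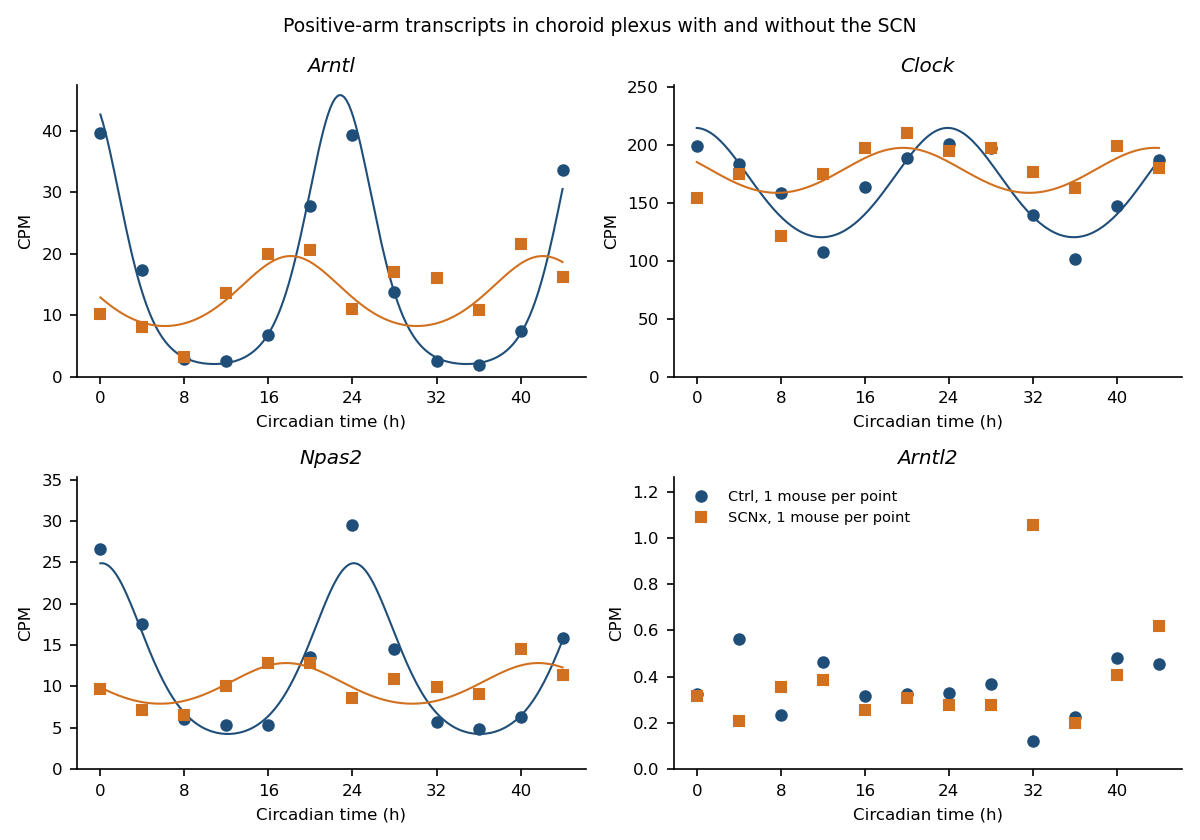
Levels of the 4 genes in CPM (TMM-normalised, linear axes from 0) against circadian time in hours, with 1 mouse per point for Ctrl (circles) and SCNx (squares) and the fitted 24 h curves for the 3 tested genes. Arntl and Npas2 reach 39.6 and 29.5 CPM in Ctrl and no more than 21.7 and 14.5 in SCNx, and the curves of SCNx are flatter for all 3.

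All 3 tested members had a 24 h rhythm in Ctrl. By the quasi-likelihood test of edgeR, with p-values adjusted after Benjamini and Hochberg over the 13697 genes, 11.1% of the genes were called. The edgeR adjusted p was 1.76e-06 for Arntl, 1.38e-07 for Npas2 and 0.00186 for Clock. The same 3 members were called by DESeq2, by limma-trend and by a rank test against asymmetric 24 h templates, and without any single library.

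Of the 3 pairs of peak times, 1 passed the test of a difference with all 12 mice. Npas2 peaked 1.30 ± 0.26 h after Arntl (SE, 95% interval from 0.71 to 1.9 h). An exact permutation test swapped the 2 genes' standardised values within the 12 mice in all ways. It gave a two-sided p of 0.00342, adjusted over 3 pairs 0.0103. The swaps compare whole standardised profiles, so a difference in the shape of the curves can also enter this p. Clock peaked 1.06 ± 0.59 h after Arntl (interval from -0.27 to 2.38 h, exact permutation p = 0.0591, adjusted 0.0886). Between Clock and Npas2 the difference was 0.25 ± 0.82 h (interval from -1.60 to 2.09 h, exact permutation p = 0.774). Without Ctrl CT16, 1 of the libraries with liver transcripts, the lag of Clock became 1.45 h with an adjusted exact permutation p of 0.0103, and Npas2 then came 0.29 h before Clock (-0.29 h, adjusted p = 0.640).

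The lag was shorter than the 4 h between samples and was read from the fitted curves. In the raw values, not scaled to each gene's swing, both genes were highest in Ctrl CT0 and CT24. On the rising side, Arntl was at 6.76 CPM in CT16 and 27.7 in CT20, when Npas2 was at 5.27 and 13.6. On the falling side, at CT4, Arntl was at 17.4 CPM and Npas2 at 17.6. The ratio of Arntl to Npas2 per kb ran from 0.259 in Ctrl CT36 to 1.35 in Ctrl CT44. The ratio of Npas2 to Clock per kb, the paralogues that pair with BMAL1, ran from 0.0925 in Ctrl CT16 to 0.420 in Ctrl CT24, a 4.54-fold range, with a median of 0.175.

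After the SCN lesion the 3 transcripts stayed inside or close to the Ctrl range and followed flatter 24 h curves. Arntl ran from 3.25 CPM in SCNx CT8 through a median of 14.9 to 21.7 in SCNx CT40, and all 12 mice lay within the Ctrl range. In SCNx CT0 and CT24, the hours of the Ctrl maximum, it was at 10.3 and 11 CPM, and in SCNx CT12 and CT36, hours of the Ctrl minimum, at 13.7 and 10.8. Npas2 ran from 6.59 CPM in SCNx CT8 through 9.94 to 14.5 in SCNx CT40, again with 12 of 12 mice inside the Ctrl range. Clock ran from 122 CPM in SCNx CT8 through 178 to 210 in SCNx CT20, with 11 mice inside the Ctrl range and 1 above it. The lowest SCNx mouse was thus CT8 for each of the 3.

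The fitted amplitudes were 0.62 ± 0.27 for Arntl, 0.35 ± 0.098 for Npas2 and 0.16 ± 0.081 for Clock (SE, n = 12), which is 28.0%, 27.3% and 37.9% of those in Ctrl. The change in amplitude was -1.60 for Arntl (95% interval from -2.20 to -1.01), -0.93 for Npas2 (from -1.21 to -0.64) and -0.26 for Clock (from -0.47 to -0.044). Tested as a difference of the whole 24 h curve between SCNx and Ctrl, which 2.29% of the tested genes passed, the adjusted p of edgeR's quasi-likelihood test was 0.000399 for Arntl and 3.65e-05 for Npas2. Clock missed the threshold with an adjusted p of 0.112 (unadjusted 0.00473), and passed it with DESeq2 at 0.0262 and in edgeR without SCNx CT8 at 0.0342.

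In SCNx alone, 0 of the 3 members passed edgeR's test for a 24 h rhythm, as did 0% of all tested genes. Unadjusted p-values under 0.05 were reached by 2 of the 3, and by 2058 of all 13697 tested genes. The adjusted p was 0.168 for Npas2, 0.310 for Arntl and 0.433 for Clock. Limma-trend and the rank test called 0 members, and DESeq2 called 1, Npas2, just under the threshold at 0.04998. DESeq2 called 432 of all tested genes here, where edgeR called 0. The 95% interval of the amplitude ran from 0.13 to 0.57 for Npas2, from 0.0073 to 1.24 for Arntl and from -0.025 to 0.34 for Clock. A fitted amplitude cannot fall below 0, so an interval that leaves out 0 is not a test of a rhythm. The fitted peaks in SCNx were at 18.1 ± 1.7 h for Arntl, 17.7 ± 1.1 h for Npas2 and 19.6 ± 2.0 h for Clock (SE).

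**Figure D2:**
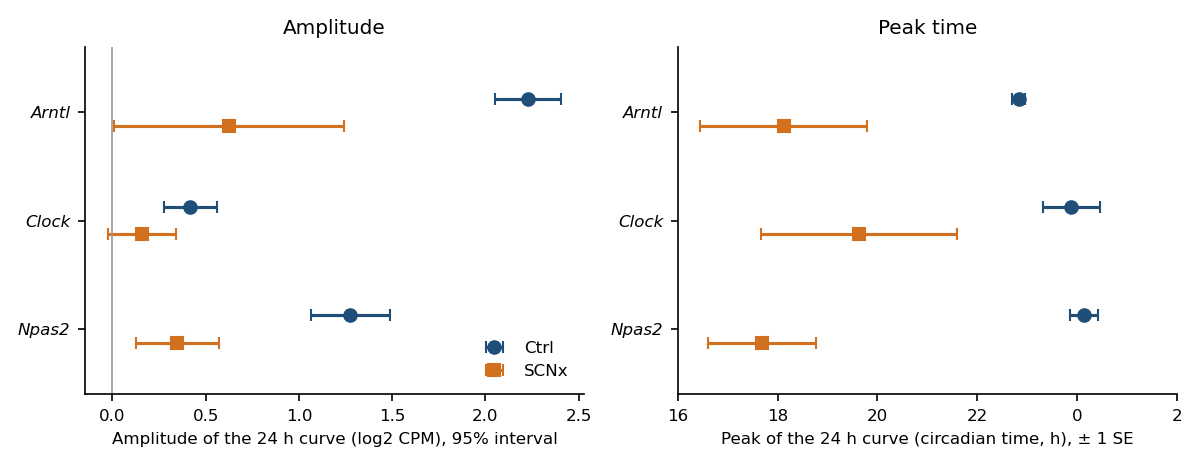
Left, amplitude of the fitted 24 h curve in log2 CPM with its 95% interval, and right, peak time in circadian hours with 1 SE, for the 3 tested genes in Ctrl (circles) and SCNx (squares), n = 12 mice each. The intervals of the 2 groups are apart for Arntl (2.05 to 2.41 against 0.0073 to 1.24) and Npas2 and overlap for Clock.

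No difference in mean level was called between the groups. Mean CPM was 16.3 ± 14.9 in Ctrl and 14.1 ± 5.57 in SCNx for Arntl, 12.6 ± 8.61 and 10.3 ± 2.35 for Npas2, and 164 ± 34.6 and 179 ± 24.2 for Clock (SD, n = 12). With time points pooled, the log2 fold change of SCNx over Ctrl was -0.21 ± 0.46 for Arntl, -0.29 ± 0.28 for Npas2 and 0.12 ± 0.11 for Clock (SE). No member passed edgeR's test, with adjusted p of 0.922, 0.767 and 0.745 and 0 of 3 under 0.05 unadjusted, and 0% of all tested genes did. DESeq2 and limma-trend called 0 of the 3 too. For Arntl the sign rested on how the mean was taken. The log2 fold change was 0.48 with the 24 h curve in the model, 0.35 with the time point as a block and 0.38 by limma on log2 CPM, none of them past the threshold. The same models gave -0.03 each for Npas2. Leaving out single libraries gave -0.33 to -0.014 for Arntl, the last without Ctrl CT0, and -0.38 to -0.11 for Npas2, the last without Ctrl CT24.

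Mice taken 24 h apart served as the only repeats of a time of day. In Ctrl the 6 pairs of Arntl differed by at most 0.36 on the log2 scale (median 0.23), in a gene whose whole range was 4.28. In SCNx the median was 0.34 and the largest 2.29, between CT8 at 3.25 CPM and CT32 at 16.1 CPM, and CT4 and CT28 differed by 1.08. For Npas2 the largest differences were 0.27 in Ctrl and 0.60 in SCNx, and for Clock 0.18 and 0.54. Over all tested genes the median of this pairwise difference was 0.117 in Ctrl and 0.147 in SCNx.

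**Figure D3:**
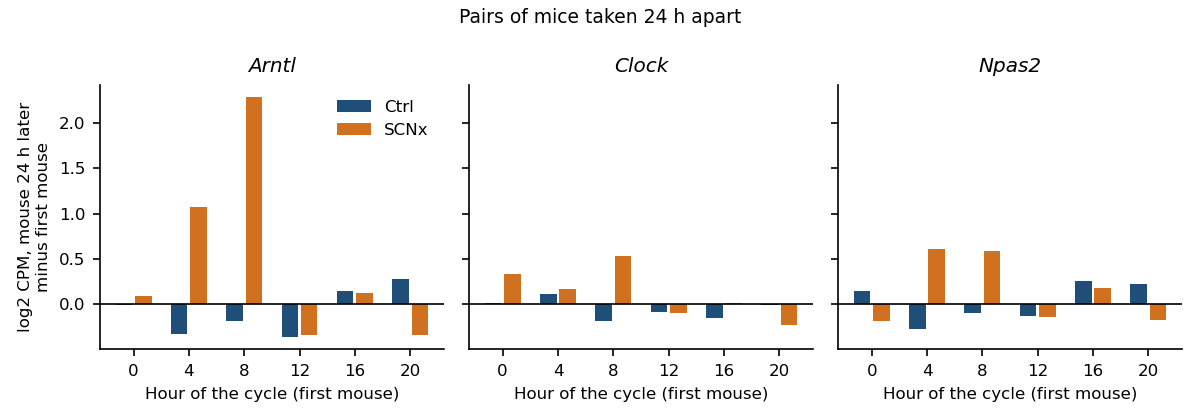
Difference in log2 CPM between the mouse taken 24 h later and the first mouse at each hour of the cycle, for Arntl, Clock and Npas2 in Ctrl and SCNx, 1 pair of mice per bar. The Ctrl bars stay within 0.36 of 0 for the 3 genes, and the SCNx bars of Arntl at hours 4 and 8 reach 1.08 and 2.29.

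Fitted to each cycle apart, the Ctrl amplitude of Arntl was 2.14 at CT0 to CT20 and 2.33 at CT24 to CT44, that of Npas2 1.26 and 1.31, and that of Clock 0.36 and 0.47. In SCNx the same fits gave 1.15 and 0.12 for Arntl, 0.52 and 0.19 for Npas2, and 0.28 and 0.088 for Clock. The first SCNx cycle held the low CT4 and CT8 mice. These are values without a test, from 6 mice each. Without SCNx CT8 the amplitude over both cycles was 0.38 for Arntl, 0.29 for Npas2 and 0.074 for Clock.

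Around these curves, SCNx mice scattered more than Ctrl mice in Arntl, which is given without a test. The residual SD of log2 CPM for Arntl was 0.19 in Ctrl and 0.67 in SCNx, a ratio of 3.48 that 98.7% of the tested genes stayed below. Without SCNx CT8, a choice made after the data were seen, the residual SD in SCNx was 0.42 and the ratio 2.18. The ratio was 1.30 for Clock and 1.05 for Npas2, against a median of 1.29 over all tested genes. SCNx CT8 was the deepest library of the 24. Its summed neuronal markers were at 9.10 CPM and its hepatocyte markers at 13.4 CPM, against SCNx medians of 16.4 and 4.45, and its 5 fibroblast markers, at 453 CPM, were the highest of SCNx, where the median was 391. Their part in the low Arntl of this mouse was not tested.

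From mouse to mouse within SCNx, Arntl went with both of its possible partners, each mouse standing for its own time. Across the 12 mice Arntl and Npas2 correlated with Pearson's r of 0.914 (permutation p = 1e-05, the smallest 100000 orders can give, adjusted over 9 relations 4.5e-05) and Spearman's rho of 0.958 (permutation p = 2e-05, adjusted 9e-05). Without SCNx CT4 and CT8, the 2 mice farthest from the median of Arntl, r was 0.912. For Arntl and Clock r was 0.892 (permutation p = 0.0009, adjusted 0.00162) and rho 0.895 (permutation p = 0.0002, adjusted 0.0006), and r was 0.763 without the same 2 mice. Clock and Npas2 gave r of 0.733 (permutation p = 0.00517, adjusted 0.00775) and rho of 0.776 (permutation p = 0.00436, adjusted 0.00785), with r of 0.493 without SCNx CT8 and CT20. Without SCNx CT8 alone, a choice made after the data were seen, the last relation had r of 0.570 with an adjusted permutation p of 0.0801 and so rested on that mouse. The residuals of the 24 h curves correlated in SCNx with r of 0.884 for Arntl and Npas2 and 0.881 for Arntl and Clock, against 0.374 and 0.0047 in Ctrl. For Clock and Npas2 the residuals had r of 0.684 in SCNx and -0.819 in Ctrl. These residual correlations are given as a description of 12 mice each. A residual holds variation between mice and also any departure of a profile from a cosine that recurs in both cycles. The 2 parts were not separated, so these r do not measure variation between mice alone.

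Targets of the heterodimer were compared with Arntl in the same mice. Dbp, a PAR bZIP factor driven through E-boxes, had r of -0.987 with Arntl (permutation p = 1e-05, adjusted 4.5e-05) and rho of -0.972 (permutation p = 1e-05, adjusted 9e-05), and r of -0.945 without SCNx CT4 and CT8. It was highest in SCNx CT8, at 87.8 CPM, where Arntl was lowest, and lowest in SCNx CT40, at 16.5 CPM, where Arntl was highest. The slope of Dbp on Arntl in log2 CPM was -0.84 ± 0.043 in SCNx and -0.89 ± 0.058 in Ctrl (SE, n = 12). Residuals of the curves had r of -0.980 in SCNx and -0.0515 in Ctrl, under the limit given above for residuals.

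Among the other 5 genes, Nr1d2, which encodes REV-ERBβ, had r of -0.901 (adjusted permutation p = 0.000292) and rho of -0.727 (adjusted 0.0121), and Ciart, a repressor of the heterodimer, r of -0.897 (adjusted permutation p = 0.000292) and rho of -0.818 (adjusted 0.00416). Without the 2 farthest mice their r were -0.624 and -0.696. Per3 had r of -0.691 (adjusted permutation p = 0.0160) and rho of -0.748 (adjusted 0.0111), and its r became -0.602 with an adjusted p of 0.0747 without SCNx CT8. Per2 missed the threshold by r of -0.609 (adjusted permutation p = 0.0542) and passed it by rho of -0.643 (adjusted 0.0312). Nr1d1 missed it by both, with r of -0.570 (adjusted permutation p = 0.0542) and rho of -0.538 (adjusted 0.0741), and its r was -0.252 without the 2 mice. SCNx CT8 was the highest of its group for Nr1d1, Nr1d2, Dbp, Ciart and Per3 and the next to highest for Per2, at 40.6 CPM.

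**Figure D4:**
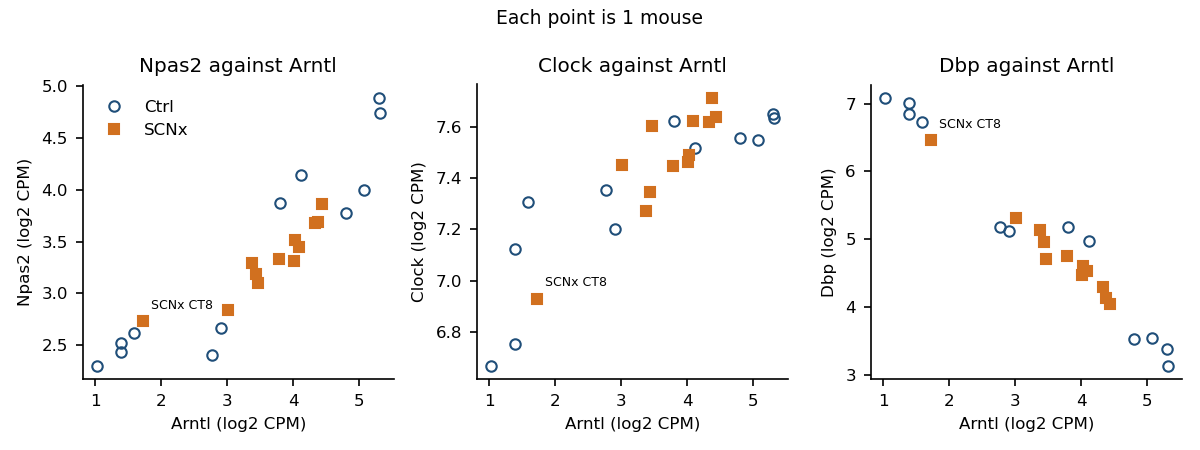
Log2 CPM of Npas2, Clock and Dbp against that of Arntl, 1 point per mouse, for Ctrl (open circles) and SCNx (filled squares), with SCNx CT8 named. In SCNx the points lie along a line, with r of 0.914, 0.892 and -0.987, and SCNx CT8 sits at the low-Arntl end of each.

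Among all tested genes, those most like Arntl were found by Pearson's r of log2 CPM over the 24 libraries, which share depth and time of day. The 5 highest were Rapgef5, a guanine nucleotide exchange factor (0.972), Leo1, a subunit of the PAF1 elongation complex (0.963), the immediate early gene Ier5 (0.944), Gm33027 (0.923) and Syt17, a synaptotagmin (0.923). Their Ctrl peaks lay between 22.8 and 23.7 h and their amplitudes between 0.49 and 1.02, below that of Arntl. Npas2 was 7th of the list with r of 0.904 and Clock 21st with 0.870. The 5 lowest were Dbp (-0.981), Ciart (-0.944), Tef (-0.935), the tetraspanin gene Tspan4 (-0.922) and Hlf (-0.902), with peaks from 10.2 to 12.0 h. Most like Clock were Il1r1, the interleukin 1 receptor (0.955), Zfp618 (0.931) and Rapgef5 (0.897), and most like Npas2 were Ier5 (0.921), Arntl (0.904) and Rnf144b (0.901).

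Other genes of the loop were rhythmic in Ctrl at other hours, and most had another curve in SCNx. All 8 repressors of CLOCK-BMAL1 (Per1, Per2, Per3, Cry1, Cry2, Ciart, Bhlhe40 and Bhlhe41) were called in Ctrl, with a median amplitude of 1.07 against 0.109 over all tested genes, and peaks from 11.3 h after that of Arntl for Bhlhe41 to 19.6 h for Cry1. In SCNx their median amplitude was 0.26 against 0.090, edgeR called 0 of 8 (3 under 0.05 unadjusted, 0 by limma-trend, 2 by DESeq2), and the curve differed between the groups for 7, Bhlhe40 having an adjusted p of 0.176. Over all tested genes, edgeR called 11.1% in Ctrl and 2.29% for the difference. In SCNx 2058 of the 13697 were under 0.05 unadjusted and DESeq2 called 432. The REV-ERB genes Nr1d1 and Nr1d2 and the ROR gene Rora were called in Ctrl, and Rorb was below the minimum. The study, with other programs and another threshold, placed Cry1 and Rora below its limit for rhythmicity and discussed Cry1 as arrhythmic. Nr1d1, which encodes REV-ERBα, peaked 8.71 h after Arntl with an amplitude of 2.49 ± 0.20 (SE, n = 12). The curve differed between the groups for Nr1d1 and Nr1d2, Rora having an adjusted p of 0.216 by edgeR.

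The 4 genes Dbp, Tef, Hlf and Nfil3 were called in Ctrl and for the difference, with median amplitudes of 1.09 in Ctrl and 0.33 in SCNx. In SCNx edgeR called 0 of the 4 (4 under 0.05 unadjusted, 0 by limma-trend, 3 by DESeq2). The shares over all tested genes are those given for the repressors. Nfil3, a repressor that competes with the other 3 at D-boxes, peaked 22.1 h after Arntl, that is shortly before the next Arntl peak, and the others 11.4 to 12.9 h after it.

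Relatives and cofactors of the heterodimer stood near or below the share of all tested genes called in Ctrl, 11.1%, so that nothing is read from their counts. Of 15 other bHLH-PAS genes, 10 were tested and 1 was called in Ctrl, Hif1a, the hypoxia-inducible factor, with an amplitude of 0.14 ± 0.034 (SE, n = 12) and an adjusted p of 0.0384 by edgeR. For the difference of the curves edgeR called 0 of the 10 (1 under 0.05 unadjusted, 0 by limma-trend, 1 by DESeq2). Of 8 cofactors, the acetyltransferase genes Crebbp, Ep300 and Kat2b among them, edgeR called 0 in Ctrl (1 under 0.05 unadjusted, 0 by limma-trend and DESeq2), with a median amplitude of 0.078. No gene of the 5 lists differed in level between SCNx and Ctrl by edgeR, where 4 of the 33 tested had an unadjusted p under 0.05.

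Arntl2 was near the limit of what was counted. It had 5 to 24 counts per library in Ctrl and 9 to 47 in SCNx, from 0.121 CPM in Ctrl CT32 to 0.564 in Ctrl CT4 and from 0.198 in SCNx CT36 to 1.05 in SCNx CT32, with medians of 0.328 and 0.310. The highest library of each group was the one with the neuronal markers, 334 and 408 CPM in sum, and their part in the Arntl2 values was not tested.

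The KO libraries are compared as values, with 1 mouse at each time, and on a scale normalised over the 26 libraries. Intervals are 95% Clopper-Pearson and cover counting error only. Arntl had 184 counts at ZT7, 12.8 CPM (11.1 to 14.8), and 169 at ZT18, 10.6 CPM (9.10 to 12.4). Both lay inside the ranges of Ctrl and SCNx, above 6 of the 12 Ctrl mice at either time. The floxed allele loses part of the gene and counts over the whole gene include what remains, so this count does not measure the deletion.

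At the hours nearest to those of KO, Arntl was higher at night than by day in Ctrl and not in the 2 KO libraries. These hours leave out CT0 and CT24, in subjective day, where Arntl was highest in Ctrl. In Ctrl it was at 2.91 and 2.56 CPM in CT8 and CT32 and at 6.65, 27.3, 7.33 and 33.0 CPM in CT16, CT20, CT40 and CT44, a log2 difference of night minus day of 2.39. The lowest of the 4 night values lay above both day values. SCNx gave a log2 difference of 1.43, with day values of 3.21 and 15.8 CPM that came apart and night values from 16.1 to 21.4. KO gave -0.27, with overlapping counting intervals. Differences past 2-fold were found for 2.15% of the tested genes in Ctrl, 4.96% in SCNx and 3.74% in KO, over 6, 6 and 2 mice.

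Npas2 in KO had 9.15 CPM (7.65 to 10.9) at ZT7 and 12.4 CPM (10.7 to 14.3) at ZT18, a log2 difference of 0.44, beside 0.63 in Ctrl and 0.66 in SCNx. Clock had 282 CPM (273 to 291) and 224 CPM (216 to 231), above all 24 Ctrl and SCNx libraries at both times, and a log2 difference of -0.33 beside 0.19 and 0.42. With library sizes alone it was 232 CPM at ZT7, still above all 24, and 197 at ZT18, above 10 of the 12 Ctrl and 9 of the 12 SCNx mice. Arntl2 had 3 and 7 counts. KO libraries differed from the others in more than genotype: they came from frozen sections by laser-capture microdissection, with another library kit and lower RNA integrity, and held 317 and 425 CPM of the neuronal markers, 373 and 508 of 5 oligodendrocyte markers and 729 and 825 of 5 astrocyte markers, against medians of 17.8, 72.7 and 54.5 in Ctrl. Genotype, tamoxifen, age, facility, lighting and protocol cannot be told apart here.

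**Figure D5:**
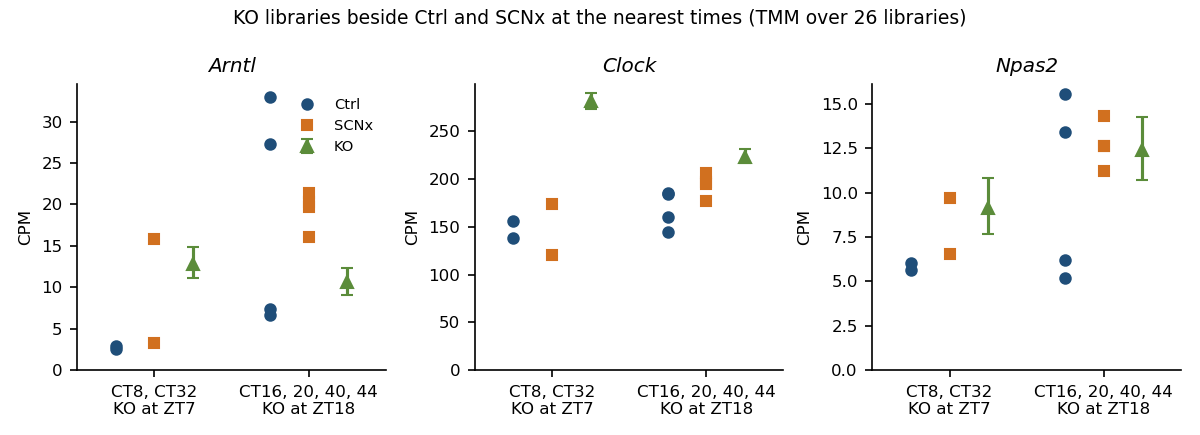
CPM of Arntl, Clock and Npas2 (normalised over 26 libraries, axes from 0) at CT8 and CT32 beside KO at ZT7, and at CT16, CT20, CT40 and CT44 beside KO at ZT18, 1 mouse per point, with the 95% counting interval on the KO points (triangles). KO Arntl is at 12.8 and 10.6 CPM, and KO Clock, at 282 and 224, is above every Ctrl and SCNx point shown.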

How the data were processed

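RNA-seq of the choroid plexus was available for 12 Ctrl, 12 SCNx and 2 KO mice. According to the methods, the authors mapped single-end reads to GRCm39 in the nf-core/rnaseq pipeline with STAR and Salmon 1.9.0 (versions from the submitters' processing notes) and deposited expected counts per gene, which are Salmon's estimated counts and not normalised. The libraries of KO were made with another kit and dissection and their counts stand in a table of their own. The members, gene lists and tests were chosen with earlier results of these data known.

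Counts were rounded, and edgeR 4.0.16 (R 4.3.3) gave CPM after TMM scaling, and log2 CPM with a prior count of 2. Where Ctrl and SCNx both averaged 1 CPM or more, a gene was tested with the quasi-likelihood F test in 1 fit of 24 libraries (mean, 24 h cosine and sine per group) and adjusted by Benjamini-Hochberg over the 13697 genes at 0.05. Levels were compared with time points pooled. The study's own rhythm tests worked on TPM with other programs, of which eJTK was rebuilt as a rank test and tried as an alternative. No sample label gives replicate numbers and each mouse is a separate animal, so curves over 12 mice stand in for replicates of a time. Amplitudes, peaks and their errors came from least squares on log2 CPM. Depth was 38751201 estimated counts or more in Ctrl and SCNx and 17425207 or more in KO. The lowest count of a tested member in Ctrl or SCNx was 89, for Arntl, where counting error alone is 10.6% or 0.15 on the log2 scale. Correlations and peak orders were tested by permutation with scipy 1.17.1, numpy 2.4.6 and pandas 2.3.3 (Python 3.11.15), and matplotlib 3.10.9 made the plots. The named genes were the 4 members, list genes as counts, and the genes most like and least like the members by r. Exon lengths came from GENCODE vM21 and start windows from RefSeq, both on GRCm38, and served for lengths and letters only. A gene of the lists is not reported here and was left out of their counts. The fits were tested on simulated data. Alternatives were DESeq2 1.42.0, limma-trend of limma 3.58.1, the rank test, other normalisations, minimums and models of time, and leaving out libraries.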

Additional observations from a re-analysis of the deposited data

Results flagged for a closer look

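Of the members, Arntl and Npas2 stood out because their 24 h curve differed between SCNx and Ctrl by the test of the difference itself, with adjusted p of 0.000399 and 3.65e-05 by edgeR's quasi-likelihood test. In Ctrl the amplitudes on the log2 scale were 2.23 and 1.28, and in SCNx 0.62 and 0.35. The same test singled out 7 of the 8 repressors of CLOCK-BMAL1, 2 of the 3 REV-ERB and ROR genes given here (Nr1d1 and Nr1d2), and all 4 of Dbp, Tef, Hlf and Nfil3, against 2.29% of the tested genes.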

How the results depend on the processing

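Each call on a member was recomputed under 35 to 37 alternatives per test, in addition to those for peaks, correlations and KO. The rhythm of Arntl, Npas2 and Clock in Ctrl was called under all 37, and the difference of the curves under all 35 for Arntl and Npas2. In SCNx 1 member in place of 0, Npas2, was called with no filter on low counts (adjusted p = 0.0399) and by DESeq2 (0.04998). Clock was called for the difference with no filter (0.0420), by DESeq2 (0.0262) and without SCNx CT8 (0.0342). The level of Arntl was reversed, at 0.35 with the time point as a block, 0.48 with the 24 h curve in the model and 0.38 by limma-trend, and no level was called under any of 36 alternatives. The block was run for the level only, where it changed no call. Without each library in turn, the members called numbered 3 in Ctrl, 0 in SCNx, 2 to 3 for the difference and 0 for the level.

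The lag of Clock behind Arntl in Ctrl was 1.45 h and called without Ctrl CT16, and Npas2 then came before Clock (-0.29 h). Leaving out each mouse gave 0.71 to 1.45 h for Clock after Arntl, 1.16 to 1.41 h for Npas2 after Arntl, and -0.29 to 0.66 h for Npas2 after Clock. Across SCNx mice, r was 0.570 for Clock and Npas2 and -0.602 for Arntl and Per3 without SCNx CT8, neither called. With library sizes alone, KO levels were 10.6 CPM for Arntl, 232 for Clock and 7.52 for Npas2 at ZT7, and 197 for Clock at ZT18. Other prior counts moved no cycle's amplitude by more than its error.

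Over all genes, the 1522 calls in Ctrl became 625 with time of day as 6 levels, 935 by the rank test and 918 to 2249 without single libraries. The 0 calls in SCNx became 432 by DESeq2, 1384 with no filter and 0 to 6 without single libraries, although 2058 genes had an unadjusted p under 0.05. The 314 differences became 589 by DESeq2, 654 with no filter, 80 with 6 levels, 504 without Ctrl CT4 and SCNx CT32, and 175 to 466 without single libraries. The 0 level differences (1275 genes under 0.05 unadjusted) became 14 by DESeq2 and 0 to 3. The cause was not tested. With 1 mouse per time and group, variation between mice was measured only around the curves and between mice 24 h apart.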
